A study of Mus musculus with 4 samples.

Results

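Transcripts of 10 imprinted protein-coding genes of the mouse were compared between RNA recovered with FLAG-tagged NANOS2 and the starting RNA of the testis: Igf2, Igf2r, Grb10, Dlk1, Mest, Peg3, Plagl1, Ndn, Snrpn and Peg10. Their probes were found by matching the RefSeq accession of each non-control probe to these symbols, which gave 15 probes of the 41174 on the array, and 16358 gene symbols in all had a probe. In the reference annotation (GRCm38.p6) all 10 are protein-coding, with Igf2, Peg3, Ndn and Snrpn on chromosome 7, Mest and Peg10 on chromosome 6, Plagl1 on 10, Grb10 on 11, Dlk1 on 12 and Igf2r on 17. The array design names an older build, so no positions are given.

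Imprinted genes are expressed from only the maternal or only the paternal copy. DNA methylation laid down in the egg or the sperm marks which parent a copy came from. Many of them act on growth: Igf2, read from the paternal allele, encodes a fetal growth factor, and Igf2r, read from the maternal allele, encodes the receptor that removes it. In the male germ line the inherited marks are erased in the fetus and a paternal pattern is set again before birth, so spermatogonia of the postnatal testis carry the paternal pattern while the somatic cells around them keep the parental difference. The arrays measured transcript levels and do not tell the alleles apart.

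Both groups came from testis of male mice at postnatal day 7 that carry the transgene Tg-Nanos2 enhancer-3xFLAG-Nanos2-3'UTR, in which a Nanos2 enhancer drives NANOS2 with a FLAG tag and the Nanos2 3′ untranslated region. NANOS2 binds RNA and is made in male germ cells. FLAG IP is RNA recovered through the tag, and Input is RNA of the starting material, each on 2 single-colour (Cy3) Agilent arrays, 4 in all, described as biological duplicates. The labels name no animals and no strain, do not say whether endogenous Nanos2 is present, and contain a description of a fetal gonad that disagrees with the titles. A control immunoprecipitate from untagged testis is not analysed here, and binding by NANOS2 cannot be told apart from other reasons for a transcript being rich or poor in the FLAG IP. Whole testis was used, so a level sums over all its cell types. A change compares recovered RNA with starting RNA, and measures neither cell number nor RNA per cell.

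A level is the log2 signal of a probe relative to the 75th percentile of its own array, and a change is the FLAG IP mean minus the Input mean of these levels, with the standard error of a limma model fitted to all tested probes. The test took the 27823 probes that were well above background in the FLAG IP pair, the Input pair or both, and a probe is called at an adjusted p under 0.05. Before scaling, this percentile lay at a signal of 1019 and 1267 in the FLAG IP arrays, against 1474 and 1676 in the Input arrays. Of the tested probes 15.6% were called higher and 20.1% lower in the FLAG IP, 35.6% in either direction, and their median change was −0.13. Of all calls 43.7% were higher, but 3.83% with spike-in control spots as the scale, which moved the median of all probes by −0.98. That scaling takes the same amount off every change, so the order of the genes is the same under both. Its limma SE was 0.41 for every tested probe of these imprinted genes, so their calls under it follow the size of the change alone. The log2 spike-in signal, from 8 spike-in probes, was taken relative to the 75th percentile of each array. It was 2.66 and 2.11 in the FLAG IP arrays, against 1.23 and 1.57 in the Input arrays, so this scale itself differed between replicates. Of 17 tested markers of undifferentiated spermatogonia 13 were higher and 0 lower, with a median change of 1.62 and summed linear levels of 45.6 and 35.4 in the FLAG IP arrays, against 9.36 and 9.63 in the Input arrays. Markers of Sertoli cells (8 of 16 lower, median −0.66), Leydig cells (5 of 10, −0.86), peritubular myoid cells (5 of 8, −0.72) and macrophages (5 of 8, −0.79) were lower and 0 of them were higher. Endothelial markers had few calls: of 8 tested 1 was higher and 0 lower, with a median of −0.44, also below that of all probes. Their changes ran from −1.56 ± 0.86 for Tie1, with a wide spread between replicates, to 1.29 ± 0.30 for Flt1.

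Most of the imprinted genes had less signal in the FLAG IP and Snrpn had more. Read at its brightest probe, 1 of the 9 tested genes rose (Snrpn), 5 fell (Igf2r, Mest, Peg3, Plagl1 and Ndn) and 3 were not called (Igf2, Dlk1 and Grb10). Peg10 was not tested. The background shares are 15.6% higher and 20.1% lower, so the 5 of 9 that fell (55.6%) lie above the background, with few genes behind the share. The median change of the 9 was −0.63, against −0.13 over all tested probes. In all 8 genes other than Snrpn both FLAG IP arrays lay below both Input arrays, as 43.3% of all tested probes did, and for Snrpn both lay above, as for 30.5%. Of the 9 genes 5 are among the 6956 brightest tested probes, of which 23.1% were called lower. The summed linear levels of 4 somatic marker lists were also lower on both FLAG IP arrays than on both Input arrays. They were for Sertoli cells 255 and 258 in the FLAG IP arrays, against 390 and 360 in the Input arrays, and for Leydig cells 15.49 and 19.03 in the FLAG IP arrays, against 40.99 and 31.65 in the Input arrays. Myoid cells had 74.9 and 76.8 in the FLAG IP arrays, against 126 and 114 in the Input arrays, and macrophages 3.34 and 3.38 in the FLAG IP arrays, against 5.86 and 5.75 in the Input arrays. The endothelial sums overlapped, with 2.93 and 2.06 in the FLAG IP arrays, against 1.94 and 2.86 in the Input arrays. The part of these cells in the result was not tested. Without Input replicate 1 or without Input replicate 2, 0 of the 9 genes were called in limma, with 4 at an unadjusted p under 0.05 each time, and the calls over all probes were then 1941 and 1907, against 9916 with all 4 arrays. In these fits the spread comes from the FLAG IP pair alone, and the single Input array is assumed to vary like it. The changes themselves stayed about as large, with a median over the 9 genes of −0.58 and −0.66, against −0.63 with all arrays, while the SE of Ndn, for example, was 0.26 instead of 0.14.

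**Figure D1:**
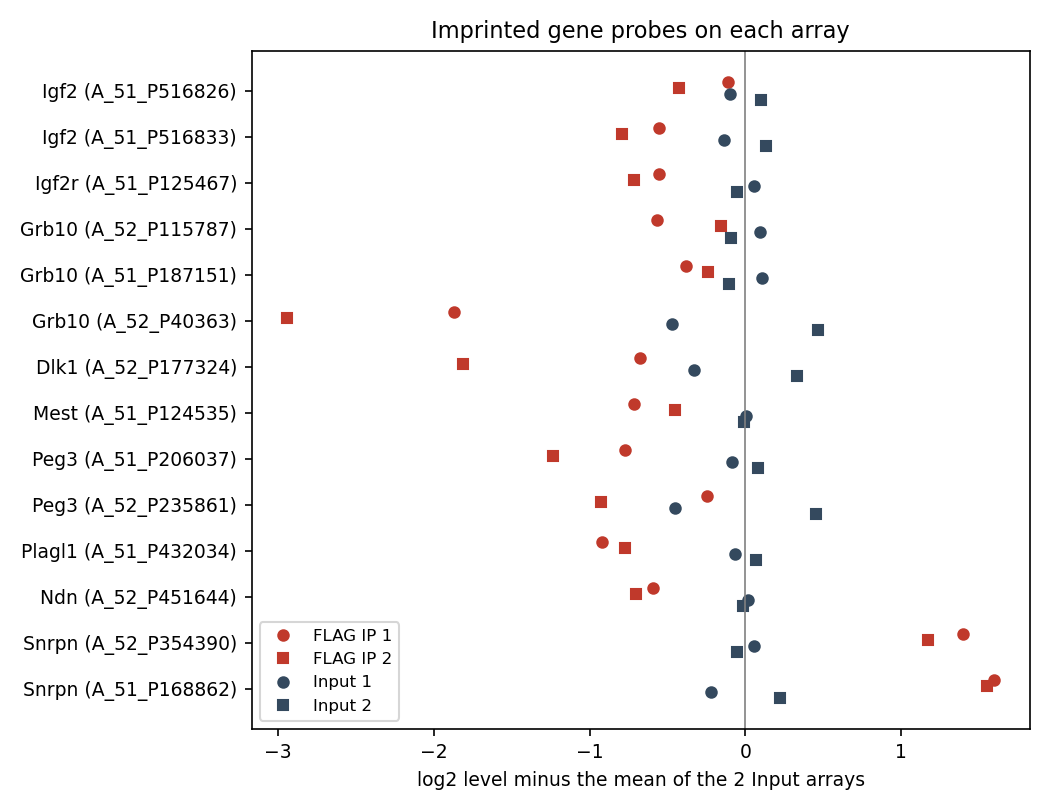
Level of each tested probe of the imprinted genes on each of the 4 arrays, as the log2 difference from the mean of the 2 Input arrays (x axis), with 1 row per probe. Both FLAG IP arrays are left of both Input arrays in 11 of the 14 rows, right of them for the 2 Snrpn probes, and mixed for the second Peg3 probe.

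Snrpn encodes SmN, a core protein of the spliceosome that is read from the paternal allele. Its brighter probe (A_52_P354390, transcript NM_013670) had levels of 0.60 and 0.37 in the FLAG IP arrays, against −0.75 and −0.86 in the Input arrays. The second probe of the same transcript (A_51_P168862) had −0.21 and −0.26 in the FLAG IP arrays, against −2.04 and −1.59 in the Input arrays. On both probes every FLAG IP array was above every Input array. The changes were 1.28 ± 0.16 and 1.58 ± 0.20 (SE, n = 2 arrays each; adjusted p = 0.0084 and 0.0087), or 2.44-fold and 2.98-fold, and they rank above 93.7% and 96.0% of all tested probes. Snurf, whose reading frame lies upstream of that of Snrpn on one bicistronic transcript, has a probe of its own (NM_033174). It had levels of −0.66 and −0.75 in the FLAG IP arrays, against −1.83 and −1.92 in the Input arrays, a rise of 1.17 ± 0.14 (adjusted p = 0.0080). With spike-in scaling the 2 Snrpn changes were 0.30 and 0.59, both with an SE of 0.41, and not called (adjusted p = 0.51 and 0.19). With that SE they were no longer distinguishable from 0. Their place above the other members is kept by design, since the same amount comes off every change. With a single Input array, where the spread comes from the FLAG IP pair alone, the brighter probe changed by 1.34 and 1.23 and was not called (adjusted p = 0.055 and 0.062), and the second probe was (0.049 and 0.034).

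Ndn lies in the same imprinted domain, which in humans is the one affected in Prader-Willi and Angelman syndromes, and it encodes necdin, a MAGE-family protein of neurons. Its levels were 1.63 and 1.53 in the FLAG IP arrays, against 2.24 and 2.21 in the Input arrays. The arrays of each group lay close together and the groups did not overlap. Ndn fell by 0.65 ± 0.14 (adjusted p = 0.026), to 1.56-fold lower. Of the 7 tested genes of this domain on chromosome 7, 3 rose, 2 fell and 2 were not called. Snrpn and Snurf share a transcript and are counted apart here. Mkrn3, which encodes a makorin ubiquitin ligase tied to the timing of puberty in humans, rose the most. It had −0.55 and −0.80 in the FLAG IP arrays, against −2.75 and −2.66 in the Input arrays, a change of 2.03 ± 0.16 (adjusted p = 0.0047). Peg12, a relative of the FRAT regulators of Wnt signalling, fell by 0.92 ± 0.18 (adjusted p = 0.021). Ube3a, a ubiquitin ligase read from the maternal allele in neurons, was not called at its brightest probe (0.42 ± 0.22, adjusted p = 0.19), while its other probes rose by 0.86 ± 0.14 and 1.78 ± 0.20 (adjusted p = 0.014 and 0.0075). With spike-in scaling the brightest Ube3a probe had −0.56, the next −0.12 and the last 0.80, none of them called. Atp10a, a phospholipid flippase, had a change of −0.51 ± 0.20 (adjusted p = 0.10). No probe matched Magel2, which is not analysed here.

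**Figure D2:**
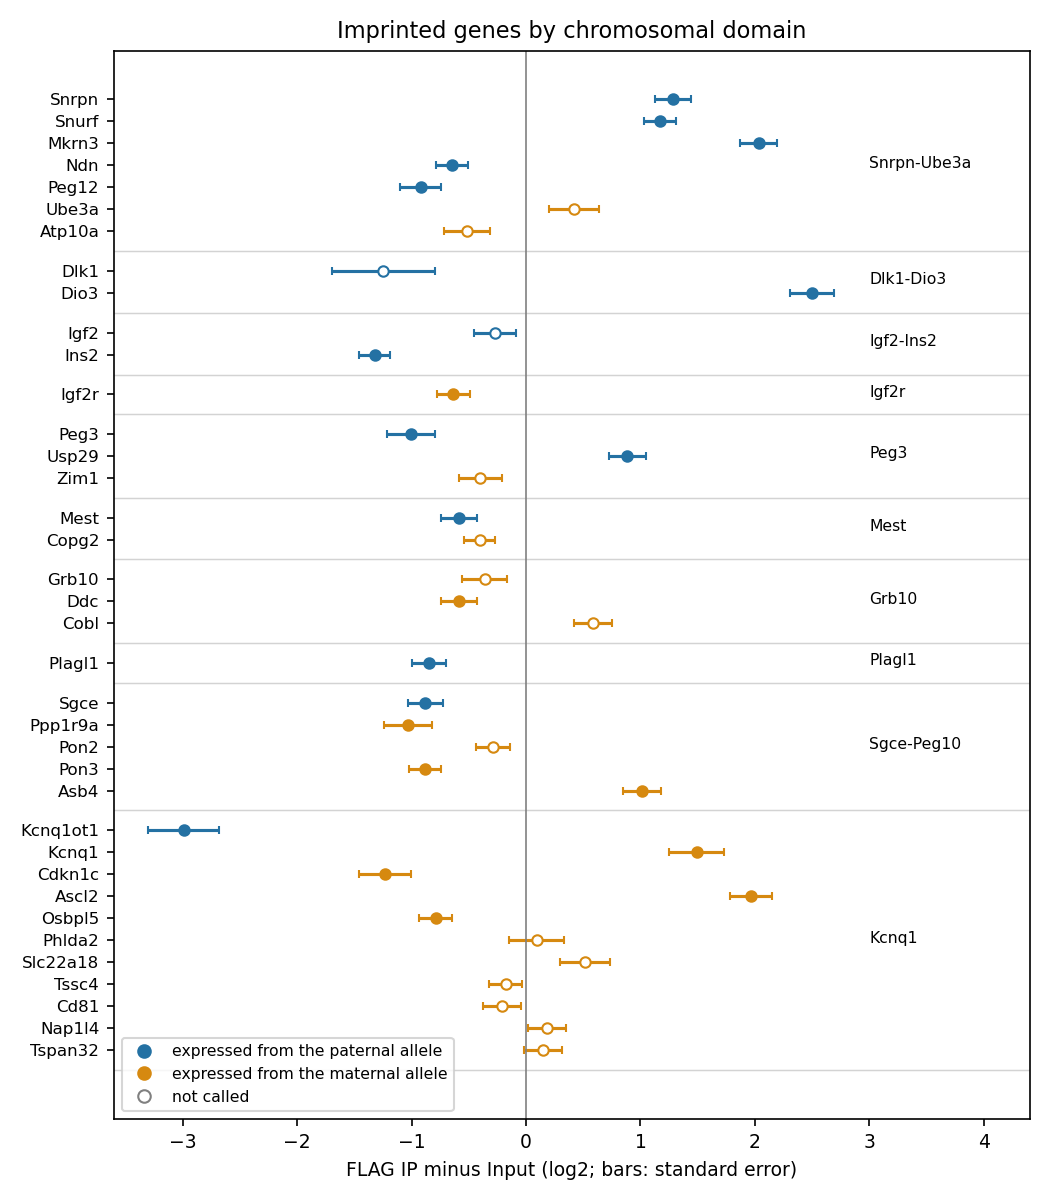
Change of the tested imprinted genes of the members' domains and of the Kcnq1 domain, each at its brightest probe (x axis, FLAG IP minus Input, log2, bars are limma standard errors, n = 2 arrays per group). Imprinted genes elsewhere, such as Nnat and Gnas, are not plotted. Genes are grouped by chromosomal domain and coloured by the allele under which they are listed, which was not measured here. Filled points are called at an adjusted p under 0.05. Snrpn, Snurf and Mkrn3 lie to the right of 0 and Ndn and Peg12 to the left within 1 domain, and Dio3 (2.50) and Kcnq1ot1 (−2.99, well above background on 1 of the 2 FLAG IP arrays) are the ends of the range plotted.

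Of the growth factor axis, Igf2r fell at its 1 probe, and Igf2 and Grb10 were not called at their brightest. Igf2 is represented by 2 probes of transcript NM_010514, of which A_51_P516826 is printed in 10 spots on every array. The mean of its spots was 3.75 and 3.43 in the FLAG IP arrays, against 3.76 and 3.96 in the Input arrays, so FLAG IP 1 and Input 1 nearly coincided. Within an array the 10 spots had an SD of 0.074 to 0.084, smaller than the distance between the arrays of a group. The change of this probe was −0.27 ± 0.18 (adjusted p = 0.28). The second probe (A_51_P516833, 1 spot) had levels of 1.45 and 1.22 in the FLAG IP arrays, against 1.87 and 2.14 in the Input arrays, and fell by 0.67 ± 0.18 (adjusted p = 0.042). The difference between the 2 Igf2 probes within an array was 2.30 and 2.22 in the FLAG IP arrays, against 1.89 and 1.82 in the Input arrays, and these did not overlap. With 2 arrays against 2 an exact permutation test cannot give a p below 0.33, and no other test of this difference was made. The call of the second probe was lost in 5 of 13 other settings, among them leaving out either Input array or FLAG IP replicate 2.

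**Figure D3:**
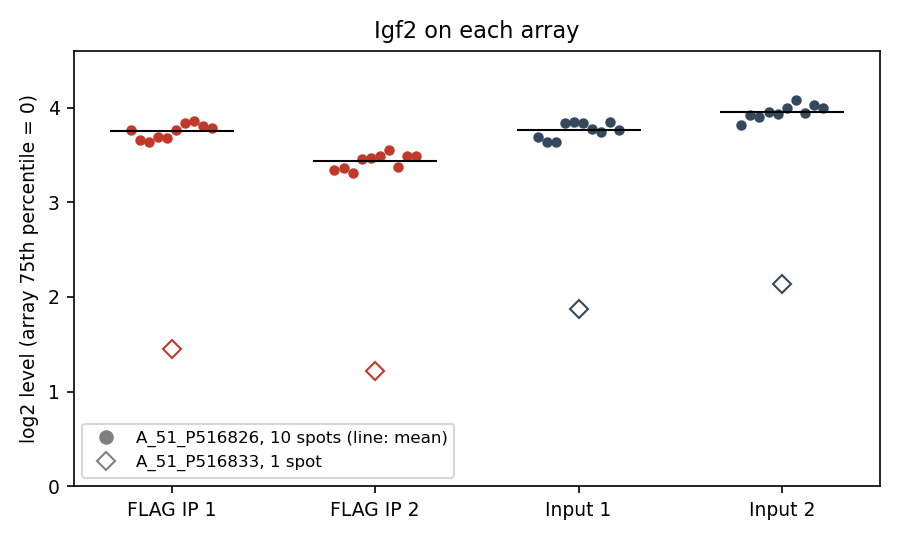
Igf2 on each array (y axis, log2 level with the 75th percentile of the array at 0). Filled circles are the 10 spots of one probe with their mean as a line, and open diamonds the single spot of the other probe, which falls by 0.67 on the log2 scale between the groups where the 10-spot probe has −0.27.

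Igf2r, the receptor for IGF2 and for mannose 6-phosphate, is a maternally expressed gene. It had levels of 0.66 and 0.51 in the FLAG IP arrays, against 1.28 and 1.17 in the Input arrays, with no overlap. It fell by 0.63 ± 0.15 (adjusted p = 0.032), to 1.55-fold lower. The call was lost in 5 of 15 other settings. Among them were dim probes kept in the test (adjusted p = 0.051) and replicate number as a block (adjusted p = 0.097). With 1 array left out the change lay between −0.71 and −0.56. Grb10, a maternally expressed adaptor that restrains signalling of the insulin and IGF1 receptors, has 3 probes of transcript NM_010345 that differ. The brightest (A_52_P115787) had 1.64 and 2.05 in the FLAG IP arrays, against 2.30 and 2.11 in the Input arrays, a change of −0.36 ± 0.20 (adjusted p = 0.21). A second (A_51_P187151) had a change of −0.31 ± 0.16 (adjusted p = 0.18). The third (A_52_P40363), well above background on 1 of the 2 FLAG IP arrays, had −5.36 and −6.44 in the FLAG IP arrays, against −3.96 and −3.03 in the Input arrays, and fell by 2.40 ± 0.48 (adjusted p = 0.023). Its change was −0.88 under normexp background correction, and without a filter on dim probes or without Input replicate 2 it was not called (adjusted p of 0.065 and 0.078). The mean of the 3 Grb10 probes had a change of −1.03 and was called (adjusted p = 0.013), unlike the brightest probe.

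Other genes of IGF signalling came from a list of 30, of which 27 were tested: 10 fell, 3 rose and 14 were not called, with a median change of −0.46. This share of 37.0% that fell stands beside the 20.1% of all probes. Igfbp4, a binding protein for IGFs, fell by 1.30 ± 0.14 (adjusted p = 0.0069), with the second probe at −1.31. Pappa, the protease that cleaves IGFBP4 and frees IGF, fell by 1.18 ± 0.21 (adjusted p = 0.017). The ligand gene Igf1 fell by 1.17 ± 0.15 (adjusted p = 0.0086), with levels of −1.01 and −1.17 in the FLAG IP arrays, against 0.03 and 0.12 in the Input arrays. Grb14, the adaptor related to Grb10, fell by 1.08 ± 0.14, the binding protein Igfbp6 by 1.07 ± 0.16 and M6pr, the smaller mannose 6-phosphate receptor, by 0.88 ± 0.15 (adjusted p = 0.0088 to 0.016). Grb2, which links receptors to Ras, rose by 0.96 ± 0.14 (adjusted p = 0.012), and Igf2bp2, an RNA-binding protein known to bind Igf2 mRNA, rose by 0.80 ± 0.17 (adjusted p = 0.025). With spike-in scaling Grb2 had −0.025 and Igf2bp2 −0.18, neither called. The calls of the list were 0 without Input replicate 1 and 0 without Input replicate 2 in limma, with 10 at an unadjusted p under 0.05 each time.

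Plagl1 encodes a zinc finger factor that regulates other imprinted genes, and it is read from the paternal allele. It had levels of −2.55 and −2.40 in the FLAG IP arrays, against −1.70 and −1.56 in the Input arrays. It fell by 0.84 ± 0.15 (adjusted p = 0.017), to 1.79-fold lower, without overlap. Peg3, a paternally expressed zinc finger protein with a part in growth and maternal behaviour in mice, is represented by 2 probes of NM_008817. The brighter (A_51_P206037) had −0.99 and −1.45 in the FLAG IP arrays, against −0.30 and −0.13 in the Input arrays, and fell by 1.004 ± 0.21 (adjusted p = 0.024), to 2.01-fold lower. On the other (A_52_P235861) the groups overlapped, with −2.67 and −3.35 in the FLAG IP arrays, against −2.88 and −1.98 in the Input arrays (change −0.58 ± 0.39, adjusted p = 0.28). The mean of the Peg3 probes was not called (−0.79, adjusted p = 0.091), and the brighter one lost its call when dim probes were kept in the test (adjusted p = 0.057). In the Peg3 domain, Usp29, a paternally expressed deubiquitinase gene known for its expression in testis and brain, rose by 0.88 ± 0.16 at its brighter probe (adjusted p = 0.019) and had a change of −0.31 ± 0.42 at the other. It had −0.10 at the brighter probe with spike-in scaling. Zim1, a maternally expressed zinc finger gene, had a change of −0.40 ± 0.19 (adjusted p = 0.16).

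Mest, a paternally expressed gene for a hydrolase-fold protein of mesoderm, had levels of 1.97 and 2.23 in the FLAG IP arrays, against 2.69 and 2.68 in the Input arrays. It fell by 0.58 ± 0.16 (adjusted p = 0.046), to 1.497-fold lower, the smallest change among the 5 genes that fell. The groups did not overlap. The call sat at the threshold and was lost in 6 of 15 other settings. Among them were quantile normalization (−0.51, adjusted p = 0.056), dim probes kept in the test (adjusted p = 0.073) and replicate number as a block (adjusted p = 0.125). The change was −0.45 without FLAG IP replicate 1, and −0.58 and −0.59 without Input replicate 1 and 2. Its neighbour Copg2, which encodes a coat protein of transport vesicles, had a change of −0.40 ± 0.13 at its brightest probe (adjusted p = 0.074). A probe of nearly the same level had −0.36, and a much dimmer one fell by 0.88 ± 0.14 (adjusted p = 0.013).

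Dlk1, a paternally expressed transmembrane protein related to the ligands of Notch, had the widest spread between replicates among the brightest probes of the 9 genes. It had levels of 3.22 and 2.09 in the FLAG IP arrays, against 3.57 and 4.23 in the Input arrays. The groups did not overlap, but the SD was 0.81 in the FLAG IP and 0.47 in the Input, and the change of −1.25 ± 0.45 was not called (adjusted p = 0.088). Without FLAG IP replicate 1, which leaves the lower array, the change was −1.81 (adjusted p = 0.023), and without FLAG IP replicate 2 it was −0.68 (adjusted p = 0.16). Dio3, at the other end of the same domain, encodes the deiodinase that inactivates thyroid hormone. It had 0.43 and 0.12 in the FLAG IP arrays, against −2.37 and −2.07 in the Input arrays, and rose by 2.50 ± 0.19 (adjusted p = 0.0046), or 5.64-fold, above 99.0% of all tested probes. Its non-coding genes Meg3, Rian and Mirg and the coding gene Rtl1 are not analysed here, since no probe matched.

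Peg10 derives from a retrotransposon and is required for the placenta in mice. Its 1 probe (A_52_P377723, NM_130877) was not well above background on any of the 4 arrays, with levels of −8.47 and −7.94 in the FLAG IP arrays, against −8.45 and −8.58 in the Input arrays, and so it has no measured difference. Its neighbours were measured. Sgce, epsilon-sarcoglycan, fell by 0.88 ± 0.15 (adjusted p = 0.016), Ppp1r9a, the actin-binding protein neurabin, by 1.03 ± 0.21 at its brightest probe (adjusted p = 0.023; its other tested probes were not called) and the paraoxonase Pon3 by 0.88 ± 0.14 (adjusted p = 0.014). Asb4, an ankyrin-repeat protein, rose by 1.01 ± 0.16 (adjusted p = 0.014), and Pon2 was not called (−0.29 ± 0.15, adjusted p = 0.19). Calcr and Tfpi2, and in the Igf2r domain the transporters Slc22a2 and Slc22a3, were not well above background on both arrays of either group. In the Grb10 domain Ddc, which makes dopamine and serotonin, fell by 0.58 ± 0.16 (adjusted p = 0.045), and Cobl, an actin nucleator, had a change of 0.58 ± 0.17 (adjusted p = 0.051), or −0.40 with spike-in scaling. No probe matched H19, Airn or Klf14, which are not analysed here.

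**Figure D4:**
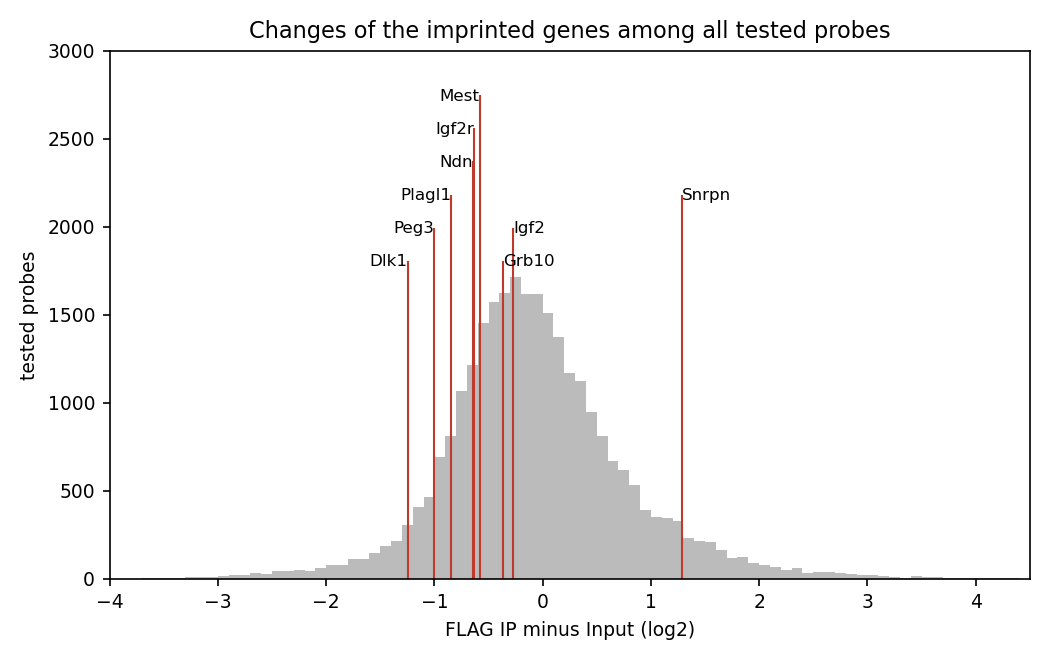
Number of tested probes (y axis) by change in bins of 0.1 (x axis, FLAG IP minus Input, log2), with the brightest probe of each of the 9 tested imprinted genes as a line. Snrpn at 1.28 lies in the upper tail, and the other 8 lie between −1.25 for Dlk1 and −0.27 for Igf2, below the median of all probes.

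Across 68 further imprinted genes, 50 had a probe and 44 were tested, of which 11 rose, 12 fell and 21 were not called. These shares of 25.0% and 27.3% stand beside 15.6% and 20.1% of all probes, and the median change was 0.00. With spike-in scaling 3 were called higher and 23 lower. Of the 17 tested paternally expressed genes 7 rose and 5 fell, with a median of 0.31. Snurf, on the same transcript as the member Snrpn, is among these 7 and among the 11 above. Of the 26 tested maternally expressed genes 4 rose and 6 fell, with a median of −0.25. The difference between these lists was not tested, and the allele expressed in these testes was not measured. Besides Dio3, Mkrn3, Snurf and Usp29, the paternally expressed genes that rose were Nap1l5, of the nucleosome assembly family (1.19 ± 0.16, adjusted p = 0.0097), Inpp5f, a phosphoinositide phosphatase (0.60 ± 0.15, adjusted p = 0.037), and Rasgrf1, an exchange factor for Ras. The Input arrays did not measure Rasgrf1 well above background, and it was at least 2.62-fold higher (adjusted p = 0.020). Under spike-in scaling Inpp5f had −0.38.

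The Kcnq1 domain of chromosome 7 held changes in both directions. Kcnq1ot1, the long non-coding RNA that silences the domain on the paternal allele and stays in the nucleus, had −5.44 and −6.24 in the FLAG IP arrays, against −3.01 and −2.69 in the Input arrays, and was well above background on 1 of the 2 FLAG IP arrays. It fell by 2.99 ± 0.31 (adjusted p = 0.0067), and its change was −1.32 under normexp background correction, so the size of the fall is uncertain. Ascl2, a helix-loop-helix factor needed in the placenta, had −0.03 and −0.40 in the FLAG IP arrays, against −2.23 and −2.13 in the Input arrays, and rose by 1.96 ± 0.18 (adjusted p = 0.0057). The potassium channel gene Kcnq1 rose by 1.49 ± 0.24 (adjusted p = 0.014). Cdkn1c, an inhibitor of cyclin-dependent kinases, fell by 1.23 ± 0.22 (adjusted p = 0.018), and the oxysterol-binding protein Osbpl5 by 0.79 ± 0.14 (adjusted p = 0.018). The remaining 6 of the 11 tested genes of the domain were not called. In the neighbouring Igf2 domain the insulin gene Ins2 fell by 1.32 ± 0.14 (adjusted p = 0.0067), with its second probe at −1.44.

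Elsewhere, Nnat, a membrane proteolipid of neurons, fell by 1.47 ± 0.21 (adjusted p = 0.011), while Blcap, in whose intron it lies, rose by 0.56 ± 0.15 (adjusted p = 0.043), or had −0.42 with spike-in scaling. Commd1, with a part in copper transport, fell by 1.09 ± 0.23 (adjusted p = 0.025) and its other probes also fell. Gnas, the stimulatory G protein alpha subunit with transcripts from several promoters, fell by 1.34 ± 0.14 at its brightest probe (adjusted p = 0.0070). It rose by 1.58 ± 0.20 at a dimmer probe of the same accession (adjusted p = 0.0086). The dimmer probe had −4.37 and −4.67 in the FLAG IP arrays, against −5.94 and −6.27 in the Input arrays. The lowest levels above background on the Input arrays were −6.44 and −6.43, so its Input signal was near background. The mean of the tested Gnas probes, which weighs both alike, had 0.12 (adjusted p = 0.58). Of 10 tested factors that maintain imprints, 2 rose and 0 fell in limma, and 8 were not called. The 20.0% that rose stands beside 15.6% of all probes, and the 0.0% that fell beside 20.1%. In limma 6 had an unadjusted p under 0.05, in both directions. Of these, Trim28 had −0.51 ± 0.15 (adjusted p = 0.0504), Mbd3 −0.44 ± 0.14 (adjusted p = 0.072) and Uhrf1 0.69 ± 0.20 (adjusted p = 0.054). Arid4b, a chromatin protein, rose by 1.71 ± 0.16 (adjusted p = 0.0057), and its other probe had 0.50. Zfp42 (REX1), a zinc finger protein of germ and stem cells, rose by 0.81 ± 0.17 (adjusted p = 0.025) and had −0.17 with spike-in scaling. Zfp445 was not called at its brightest probe (1.06 ± 0.31, adjusted p = 0.056). Its other probes rose by 1.03 ± 0.26 and 1.13 ± 0.22 (adjusted p = 0.039 and 0.021). The number of called imprint maintenance genes ranged from 1 to 6 over the other settings. With trend and robust moderation 4 were higher and 2 lower, and under normexp 4 were higher and 1 lower.

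**Figure D5:**
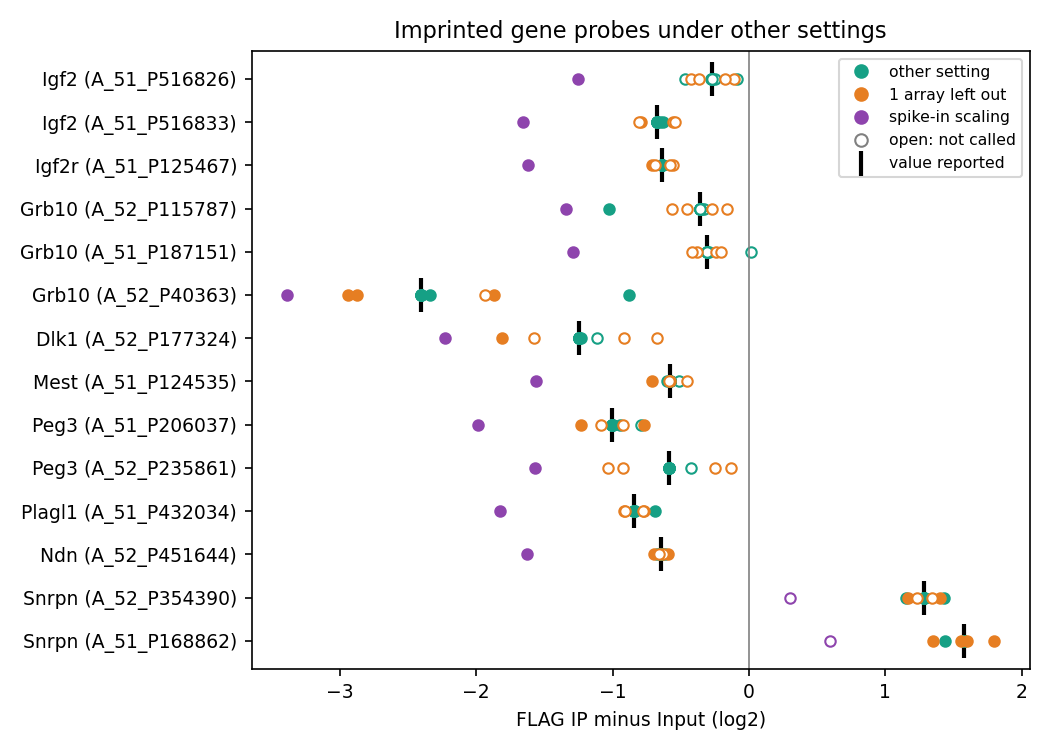
Change of each tested probe of the imprinted genes (x axis, FLAG IP minus Input, log2) as reported (black bar), under other processing settings, with 1 array left out and with spike-in scaling. Filled circles are called at an adjusted p under 0.05. Spike-in scaling moves every probe left by 0.98, and no setting brings a Snrpn probe to 0 or below.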

How the data were processed

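Per the file headers, the authors scanned the arrays and extracted spot intensities with Agilent Feature Extraction (9.5, as the submitters' processing notes have it). The intensity they deposited is a background-subtracted processed signal. Spots flagged as outliers were left out (62 to 90 of 43379 per array), 0 were saturated, and spots of a probe were averaged after log2. Each array was scaled to its 75th percentile over probes. The deposited table holds log2 values that equal the processed signal less a constant for 99.6% of values, within 0.01. A probe passed as well above background on an array with 0.5 or more of its spots flagged so.

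FLAG IP was compared with Input by lmFit and eBayes of limma (3.58.1, R 4.3.3; two-sided, no covariates), checked on simulated data, with Benjamini-Hochberg adjustment over 27823 probes, of which 18689 had a symbol. All printed adjusted p-values come from limma. Median signals took the place of mean signals under normexp (offset 50), since the files hold no mean. All 4 arrays lie on 1 slide. P-values measure the spread between these arrays.

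The members and lists were chosen with earlier results of these data known. Named genes are all members, further imprinted genes that were called or share a member's domain, and up to 8 called genes with the largest change in the IGF list and in the imprint maintenance list. Zfp445 is named for its called dimmer probes, and Trim28, Mbd3 and Uhrf1 for an unadjusted p under 0.05 in limma. Genes with more probes than one were counted by the brightest. The probe sequences are not in the files used here and are not shown. The lists of spermatogonial, Sertoli, Leydig, myoid, endothelial and macrophage markers served as a check.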

Additional observations from a re-analysis of the deposited data

How the results depend on the processing

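Precision is limited by 2 arrays per group and, for dim probes, by signal near background. Same-numbered arrays deviated in opposite directions (correlation −0.38 over tested probes), so arrays of different number tended to deviate together. Whether the numbers pair samples is not known, and the main test took the arrays as independent. With the replicate block 5575 probes, 2 of the 9 imprinted genes (Peg3 and Snrpn), 7 IGF signalling genes and 1 imprint maintenance gene were called. The crossed pairing, chosen after seeing the data, called 13531 probes, 7 of the 9 genes and 5 imprint maintenance genes. Slide could not be used as a block with all arrays on 1 slide. Spike-in scaling called 18166 probes (696 higher, 17470 lower), 8 of the 9 genes (0 higher), 26 further imprinted genes (3 higher), 20 IGF signalling genes and 5 imprint maintenance genes, the last 2 lists all lower. Under spike-in scaling every tested member probe had the same SE of 0.41, so calls of these probes follow the size of the change alone. Without a filter on dim probes 3 of 10 imprinted genes and 1 imprint maintenance gene were called. Imprint maintenance calls were 5 under normexp, 4 under quantile normalization, 5 with all 4 arrays above background, 4 with probes averaged and 6 with trend and robust moderation. With 1 array left out, calls ranged from 1907 to 10583 probes, 0 to 6 imprinted genes, 4 to 26 further imprinted genes, 0 to 14 IGF signalling genes and 1 to 4 imprint maintenance genes. Against 9916, 6, 23, 13 and 2 as reported, the lowest counts came without an Input array, where the spread comes from the FLAG IP pair alone. The direction turned under spike-in scaling for Grb2 (−0.025), Igf2bp2 (−0.18), Zfp42 (−0.17), Blcap (−0.42 and −0.27), Cobl (−0.40), Ube3a (−0.56 and −0.12), Inpp5f (−0.38) and Usp29 (−0.10), which follows from the shift of −0.98. It also turned for Grb10 probe A_51_P187151 (0.016) and Zim1 (0.035) under normexp, and for Gnas (0.12) with probes averaged, whose probes were called in opposite directions. Among the member probes, of 199 values under other settings 156 kept direction and side of the threshold, 32 lost the call, 10 gained it and 1 turned.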
